A study of Mus musculus with 9 samples.

Results

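Ribosome biogenesis factors are the proteins that transcribe, modify, cut and assemble ribosomal RNA on its way to a ribosome. The 42 mouse genes described here were given as a list of symbols, RNA polymerase I subunits and nucleolar and pre-ribosome factors, and were found by those symbols in the gene table of an RNA-seq experiment. The experiment listed 53801 genes. A filter on low counts kept 12538 protein-coding genes for testing, and all 42 factors were among them.

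The RNA came from CD11b+ cells sorted by flow cytometry from the tumor-bearing hemispheres of mice implanted with GL261 tdTomato+luc+ cells, a mouse glioma line. The study asked how an oral inhibitor of arginase 1 and 2, OAT-1746, given with or without an antibody to PD-1, changes these cells. Male C57BL/6J mice of 10 to 12 weeks were used, and 9 stranded poly-A libraries were sequenced. The methods place collection at day 28 after implantation and a figure legend at day 21.

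The CTR group (2 libraries) received saline by gavage 2 times a day. The OAT-1746 group (2 libraries) received 50 mg/kg OAT-1746 by mouth 2 times a day from day 1. The anti-PD-1 group (2 libraries) received 2.5 mg/kg of the antibody into the peritoneum on days 8, 10, 12 and 14. The COMB group (3 libraries) received both agents at these doses. The treatment label of the other anti-PD-1 library, replicate 2, names PD-2 as the target, and the library was placed in this group by its title. The methods call the libraries of a treatment biological replicates, and the labels do not say which mice each came from. The p-values measure the spread between these libraries, part of which may be technical.

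Ribosomes are built in the nucleolus, where RNA polymerase I makes the long precursor of the 18S, 5.8S and 28S rRNAs. Small nucleolar ribonucleoproteins then methylate it (box C/D) or convert uridines to pseudouridine (box H/ACA), while separate sets of assembly factors fold and cut the precursors of the small (40S) and large (60S) subunits. Growing and dividing cells make many ribosomes, and MYC is a well-known activator of these genes.

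Libraries held 13048075 to 18796479 counted read pairs. The CD11b label was checked against 8 myeloid markers, all found in every library. Itgam, which encodes CD11b, was at 302 and 370 CPM (counts scaled to the library total) in CTR, 445 and 446 in OAT-1746, 294 and 327 in anti-PD-1, and 366, 307 and 328 in COMB. Csf1r was the most abundant of the 8 at a mean of 8148 CPM. Itgam and Csf1r had log2 fold changes above 0 in OAT-1746 against CTR and the other 6 markers below 0. The median of the 8 was -0.45, and it was -0.15 without OAT-1746 replicate 2. The median difference from the CTR mean was -0.16 and -0.77 in the OAT-1746 libraries, -0.04 in each anti-PD-1 library, and -0.25, -0.05 and -0.0033 in COMB. That median for OAT-1746 is close in size to the one of the factors given below, and its part in their levels was not tested. By the paper's account several cell types pass this gate: some dendritic and NK cells, granulocytes, microglia, border-associated macrophages, and monocytes and macrophages from outside the brain. Levels are CPM after TMM scaling unless stated. OAT-1746 replicate 2 stood apart from the rest, with correlations of log2 CPM across genes between 0.911 and 0.956 against the others, where the other 8 libraries reached 0.960 to 0.989 among themselves. Without it, the OAT-1746 log2 fold change against CTR was smaller by over 1.5 times for 19 of the 42 factors, and for those the value without it stands beside the value from all libraries.

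In OAT-1746 the levels of most factors were lower than in CTR. Over the 42 factors the median log2 fold change was -0.51, with 40 lower and 2 higher, beside a median of 0.01 over all tested genes. Library by library, the median log2 difference from the CTR mean was -0.35 and -0.57 in OAT-1746, 0.09 and -0.09 in CTR, -0.07 and -0.0042 in anti-PD-1, and -0.27, -0.15 and -0.12 in COMB. Both OAT-1746 libraries were thus below both CTR libraries in this median. In bulk RNA, fewer cells of a type and less RNA per cell cannot be told apart. Without OAT-1746 replicate 2 the median of the factors was -0.36.

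For 32 of the 42 factors each OAT-1746 library was lower than each CTR library, which held for 32.1% of all tested genes. For 1 factor, Nop2, each was higher, beside 30.8%. The quasi-likelihood test of edgeR called 0 factors at an adjusted p under 0.05, beside 0% of all 12538 genes, and the lowest adjusted p among the factors was 0.0620. At an unadjusted p under 0.05 edgeR had 25 factors lower, beside 16.2% of tested genes. DESeq2 called 16 factors lower at an adjusted p under 0.05, beside 8.15% of the 11565 genes it tested, and limma voom called 0 factors, beside 0%. A single library moved the edgeR count: 18 factors were called lower without OAT-1746 replicate 1, beside 17.0% of the genes tested then, and 1, Nhp2, without COMB replicate 1, beside 0.425%. A group left with 1 library is assumed there to vary like the others.

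**Figure D1:**
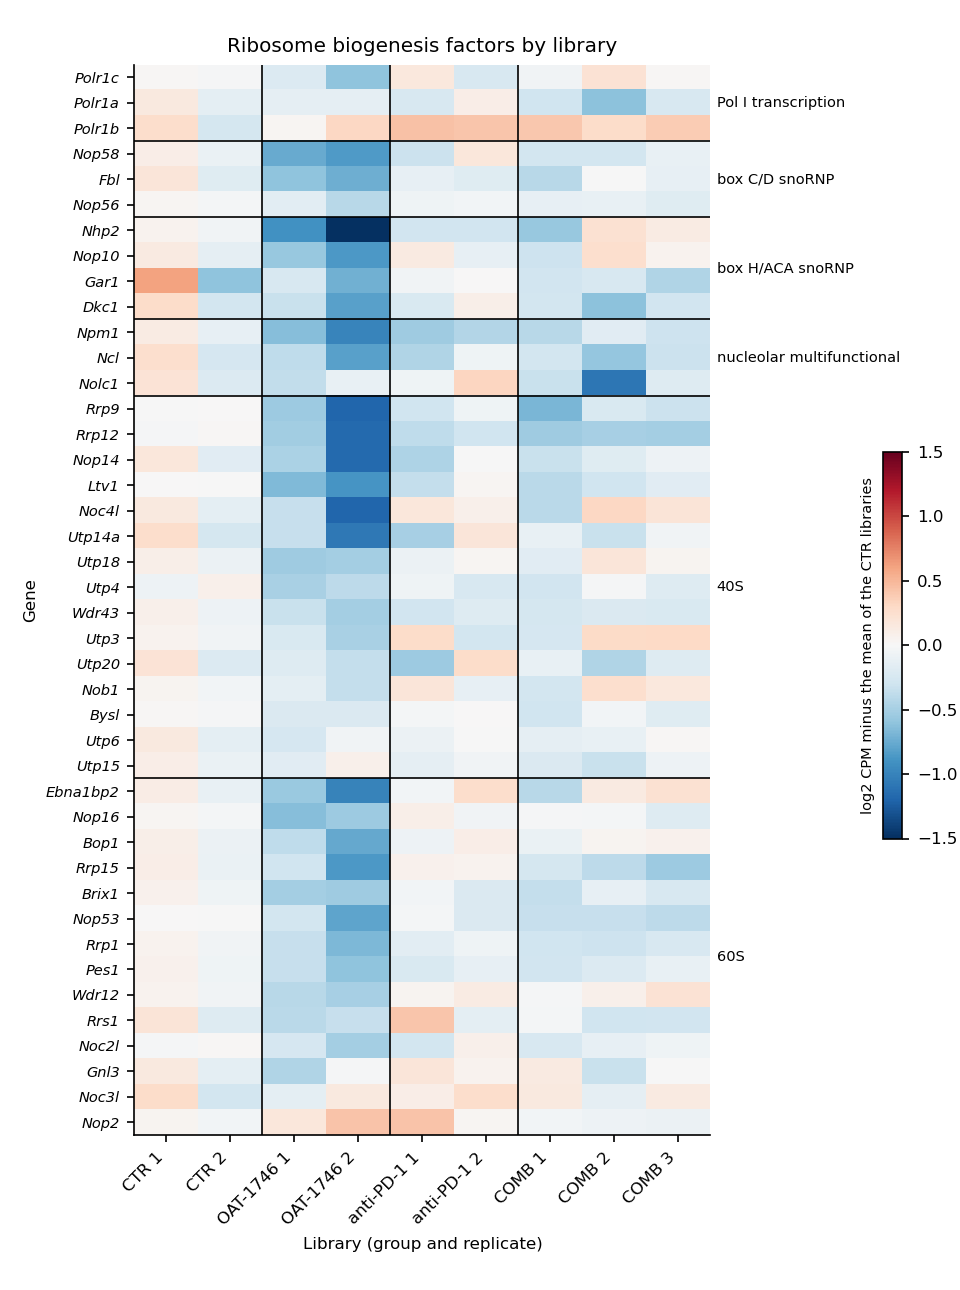
Log2 level of each of the 42 factors in each of the 9 libraries (columns, by group and replicate) minus the mean of the 2 CTR libraries, with factors (rows) grouped by step. Both OAT-1746 columns lie below CTR for 32 factors, and Nop2 is the 1 factor with both above.

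The 3 RNA polymerase I subunits had a median log2 fold change of -0.14 in OAT-1746, which was -0.29 without CTR replicate 2 and turned to 0.018 without CTR replicate 1. Polr1a, the largest catalytic subunit, was at 57.4 and 47.0 CPM in CTR, 47.2 and 47.3 in OAT-1746, 44.1 and 55.5 in anti-PD-1, and 42.2, 33.8 and 44.0 in COMB. The 3 COMB libraries were below both CTR libraries, while OAT-1746 overlapped CTR. Its log2 fold change for OAT-1746 was -0.14 ± 0.19 (SE), and 0.02 without CTR replicate 1. Polr1b, the other large subunit of the enzyme, was at 21.2 and 14.6 CPM in CTR, 17.99 and 21.8 in OAT-1746, 24.0 and 23.6 in anti-PD-1, and 23.3, 21.3 and 23.0 in COMB. CTR replicate 2 was the lowest of all 9 libraries, and without it the OAT-1746 log2 fold change of 0.15 ± 0.20 became -0.10, while without OAT-1746 replicate 2 it was 0.017. Polr1c, a subunit shared with RNA polymerase III, was at 36.0 and 35.1 CPM in CTR, 30.8 and 23.3 in OAT-1746, 39.6 and 30.0 in anti-PD-1, and 34.3, 41.4 and 35.9 in COMB. Of the 3 subunits it was the only one with both OAT-1746 libraries below both CTR libraries, beside 32.1% of tested genes. Its log2 fold change was -0.39 ± 0.20 (-0.19 without OAT-1746 replicate 2).

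All 3 box C/D core proteins among the factors had both OAT-1746 libraries below both CTR libraries, beside 32.1% of tested genes. Their median log2 fold change was -0.68 (-0.48 without CTR replicate 1). Fbl, fibrillarin, the enzyme that methylates rRNA, was at 62.7 and 49.0 CPM in CTR, 36.6 and 33.3 in OAT-1746, 50.7 and 48.8 in anti-PD-1, and 41.6, 55.4 and 50.8 in COMB. The OAT-1746 libraries were the lowest of the 9, and the other groups overlapped. Nop58 (ENSMUSG00000026020, chr1:59684971-59719044 on GRCm38, as for all genes here) was at 53.0 and 46.1 CPM in CTR, 29.3 and 27.3 in OAT-1746, 39.5 and 55.8 in anti-PD-1, and 40.9, 40.8 and 45.9 in COMB. Here too OAT-1746 was lowest, and all COMB libraries lay between OAT-1746 and CTR. The log2 fold change of Nop58 for OAT-1746 was -0.81 ± 0.19 with an adjusted p of 0.0620 in edgeR and 0.00660 in DESeq2, and -0.74 without OAT-1746 replicate 2. Nop56, the partner of Nop58, had a smaller difference of -0.28 ± 0.14, and of -0.15 without that library.

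Among the box H/ACA proteins the median log2 fold change for OAT-1746 was -0.65 (-0.41 without CTR replicate 1). For 3 of 4 both OAT-1746 libraries were below both CTR libraries, beside 32.1% of tested genes. Nhp2 (ENSMUSG00000001056, chr11:51619735-51623714), a core protein of this particle and of telomerase, was at 50.3 and 46.8 CPM in CTR, 25.7 and 16.4 in OAT-1746, 39.6 and 39.7 in anti-PD-1, and 32.8, 56.8 and 53.0 in COMB. Both OAT-1746 libraries were below all others, and COMB replicate 1 was lower than the other 2 COMB libraries, which lay above CTR. At -1.20 ± 0.28, Nhp2 had the largest OAT-1746 difference of the 42 factors, with an adjusted p of 0.0628 in edgeR and 0.00418 in DESeq2. It was -0.90 without OAT-1746 replicate 2 and -1.57 without replicate 1, and edgeR called it without OAT-1746 replicate 1 or without COMB replicate 1. Nop10, the smallest core protein, was at 27.0 and 22.3 CPM in CTR, 16.5 and 13.5 in OAT-1746, 26.8 and 22.5 in anti-PD-1, and 19.7, 29.3 and 25.4 in COMB. OAT-1746 was again below every other library. Dkc1, dyskerin, the pseudouridine synthase itself, had a log2 fold change of -0.58 ± 0.25, of -0.34 without OAT-1746 replicate 2 and of -0.26 without CTR replicate 1. Gar1 was the factor with the lowest level (8.12 CPM, at least 94 counts in every library), and its value of -0.59 ± 0.36 had overlapping libraries. It was -0.35 without OAT-1746 replicate 2 and ran from -1.08 to 0.15 when leaving out each library, so 1 library turned its direction.

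Of the 3 abundant nucleolar proteins with several roles, 2 had both OAT-1746 libraries below both CTR libraries, beside 32.1% of tested genes. The median log2 fold change of the 3 was -0.60 (-0.32 without CTR replicate 1). Npm1 (ENSMUSG00000057113, chr11:33152287-33163206), nucleophosmin, a histone and pre-ribosome chaperone, was at 462 and 386 CPM in CTR, 271 and 213 in OAT-1746, 292 and 312 in anti-PD-1, and 318, 376 and 341 in COMB. All 7 treated libraries were below both CTR libraries, and OAT-1746 was lowest. The log2 fold change of Npm1 was -0.81 ± 0.18 for OAT-1746, with an adjusted p of 0.0620 in edgeR and 0.00249 in DESeq2, and was -0.63 without OAT-1746 replicate 2. Npm1 has processed pseudogenes, and only read pairs with a mapping quality of at least 10 were counted, so its level is uncertain. Nolc1, a chaperone of small nucleolar particles, was at 45.8 and 34.4 CPM in CTR, 30.8 and 36.8 in OAT-1746, 38.0 and 49.9 in anti-PD-1, and 31.6, 18.6 and 34.7 in COMB. COMB replicate 2 was the lowest library. OAT-1746 and COMB overlapped CTR and each other, as did anti-PD-1 and CTR, while every OAT-1746 and COMB library was below both anti-PD-1 libraries. Ncl, nucleolin, was at 345 and 245 CPM in CTR, 224 and 166 in OAT-1746, 212 and 280 in anti-PD-1, and 241, 194 and 233 in COMB. CTR replicate 1 was the highest library, and the OAT-1746 and COMB libraries were all below both. Its OAT-1746 log2 fold change was -0.60 ± 0.24, with -0.39 without OAT-1746 replicate 2 and -0.32 without CTR replicate 1.

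**Figure D2:**
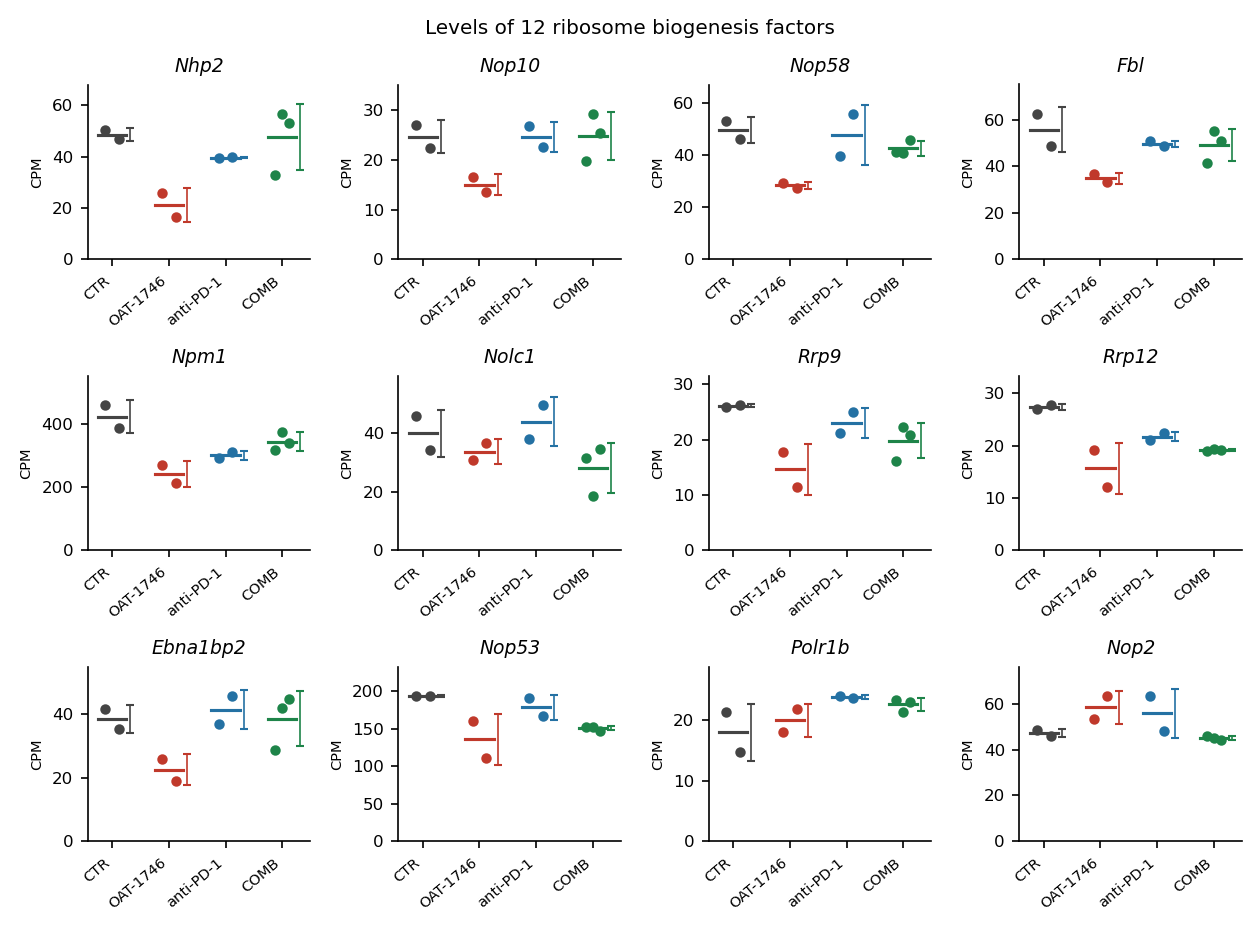
CPM of 12 factors in each library (points, vertical axis from 0, 1 panel per factor), with the mean of each group (horizontal line) and its SD (bar beside it, n = 2, or n = 3 in COMB). The OAT-1746 points are lowest for Nhp2, Nop58 and Npm1, and OAT-1746 replicate 2 lies below replicate 1 for several factors.

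In the 40S set all 15 factors had a log2 fold change under 0 in OAT-1746. The median was -0.44 (-0.34 without OAT-1746 replicate 2). Both OAT-1746 libraries were below both CTR libraries for 12, beside 32.1% of tested genes. Rrp9, a protein of the U3 particle that guides the early cuts, was at 26.0 and 26.4 CPM in CTR, 17.9 and 11.4 in OAT-1746, 21.2 and 25.0 in anti-PD-1, and 16.2, 22.3 and 20.9 in COMB. Rrp12, which acts in maturation and export of the small subunit, was at 27.0 and 27.8 CPM in CTR, 19.1 and 12.2 in OAT-1746, 21.1 and 22.3 in anti-PD-1, and 18.9, 19.4 and 19.2 in COMB. Both genes had every treated library below both CTR libraries, and OAT-1746 replicate 2 was the lowest of all. Nop14, part of the small subunit processome, was at 28.1 and 22.1 CPM in CTR, 17.9 and 11.04 in OAT-1746, 18.05 and 24.9 in anti-PD-1, and 19.7, 22.0 and 23.7 in COMB. It too was lowest in OAT-1746 replicate 2. The log2 fold change of Rrp9 was -0.84 ± 0.24 (adjusted p of 0.0734 in edgeR and 0.0252 in DESeq2). The same difference was -0.81 ± 0.21 for Rrp12 and -0.79 ± 0.26 for Nop14. Without OAT-1746 replicate 2 these 3 values were -0.54, -0.51 and -0.48, and without replicate 1 they were -1.20, -1.17 and -1.19.

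Utp18, another processome protein, had nearly equal OAT-1746 libraries, at 20.2 and 20.5 CPM, beside 31.1 and 27.6 in CTR, 27.6 and 29.8 in anti-PD-1, and 26.0, 33.3 and 30.2 in COMB. OAT-1746 was below every other library, at a log2 fold change of -0.53 ± 0.16. Utp6, the 40S factor with the highest CPM, was at 66.9 and 54.8 CPM in CTR, 51.0 and 58.1 in OAT-1746, 56.7 and 60.2 in anti-PD-1, and 55.3, 56.0 and 61.1 in COMB. The groups overlapped, and its log2 fold change of -0.16 ± 0.15 for OAT-1746 was 0.0057 without CTR replicate 1. The other 10 factors of this set ran from -0.77 ± 0.18 for Ltv1, an export factor of the small subunit, to -0.04 ± 0.17 for Utp15, which was 0.074 without OAT-1746 replicate 1. Between them were Noc4l at -0.72, Utp14a at -0.69, Utp4 at -0.44, Wdr43 at -0.43, Utp3 at -0.35, Utp20 at -0.29, Nob1, the nuclease that makes the end of 18S rRNA, at -0.25, and Bysl at -0.22. Without OAT-1746 replicate 2 the values were -0.34 for Noc4l, -0.36 for Utp14a, -0.21 for Utp3 and -0.13 for Nob1. Utp20 was at -0.057 without CTR replicate 1.

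Of the 14 factors of the 60S set, 13 were lower in OAT-1746. The median log2 fold change of the set was -0.48 (-0.35 without OAT-1746 replicate 2). Both OAT-1746 libraries were below both CTR libraries for 11, beside 32.1% of tested genes, and above them for 1, Nop2, beside 30.8%. Nop53, a late 60S factor and the most abundant of the set in CPM, was at 194 and 193 CPM in CTR, 160 and 111 in OAT-1746, 191 and 167 in anti-PD-1, and 153, 153 and 148 in COMB. All 7 treated libraries were below CTR. Its log2 fold change for OAT-1746 was -0.51 ± 0.19, and -0.26 without OAT-1746 replicate 2. Ebna1bp2, an assembly factor of the large subunit, was at 41.6 and 35.4 CPM in CTR, 26.0 and 19.1 in OAT-1746, 37.1 and 45.9 in anti-PD-1, and 28.7, 42.04 and 45.02 in COMB. Nop16, another, was at 24.0 and 22.9 CPM in CTR, 15.1 and 16.0 in OAT-1746, 24.9 and 22.6 in anti-PD-1, and 23.1, 23.0 and 20.4 in COMB. For both, each OAT-1746 library was below all other libraries. The log2 fold change for OAT-1746 was -0.77 ± 0.25 for Ebna1bp2 and -0.59 ± 0.15 for Nop16, and without OAT-1746 replicate 2 these were -0.56 and -0.63.

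Pes1, Bop1 and Wdr12 form a complex needed for maturation of 28S rRNA. Bop1 was at 55.6 and 49.1 CPM in CTR, 40.2 and 30.7 in OAT-1746, 49.7 and 56.1 in anti-PD-1, and 48.7, 53.7 and 54.8 in COMB. Wdr12 was at 17.96 and 16.7 CPM in CTR, 12.98 and 12.2 in OAT-1746, 17.8 and 18.9 in anti-PD-1, and 17.1, 18.2 and 20.1 in COMB. In both genes OAT-1746 was lowest and the other groups overlapped. The log2 fold change for OAT-1746 was -0.47 ± 0.15 for Pes1, -0.56 ± 0.17 for Bop1 (-0.37 without OAT-1746 replicate 2) and -0.46 ± 0.16 for Wdr12. Nop2, a methyltransferase of 28S rRNA that was singled out after its values were seen, went the other way, at 48.5 and 46.1 CPM in CTR, 53.3 and 63.6 in OAT-1746, 63.4 and 48.2 in anti-PD-1, and 46.1, 44.9 and 44.4 in COMB. OAT-1746 was above CTR, and all COMB libraries were below OAT-1746. Its OAT-1746 difference of 0.30 ± 0.17 did not pass (edgeR adjusted p of 0.230) and was 0.18 without OAT-1746 replicate 2. The other 60S factors were Rrp15 at -0.56, Brix1 at -0.53, Rrp1 at -0.50, Rrs1 at -0.39, Noc2l at -0.37, Gnl3, nucleostemin, at -0.23, and Noc3l at -0.02. Without OAT-1746 replicate 2 Rrp15 was at -0.29, Rrp1 at -0.33 and Noc2l at -0.24, and without CTR replicate 1 Rrs1 was at -0.17. Without OAT-1746 replicate 1 Gnl3 was at -0.030 and Noc3l at 0.12.

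**Figure D3:**
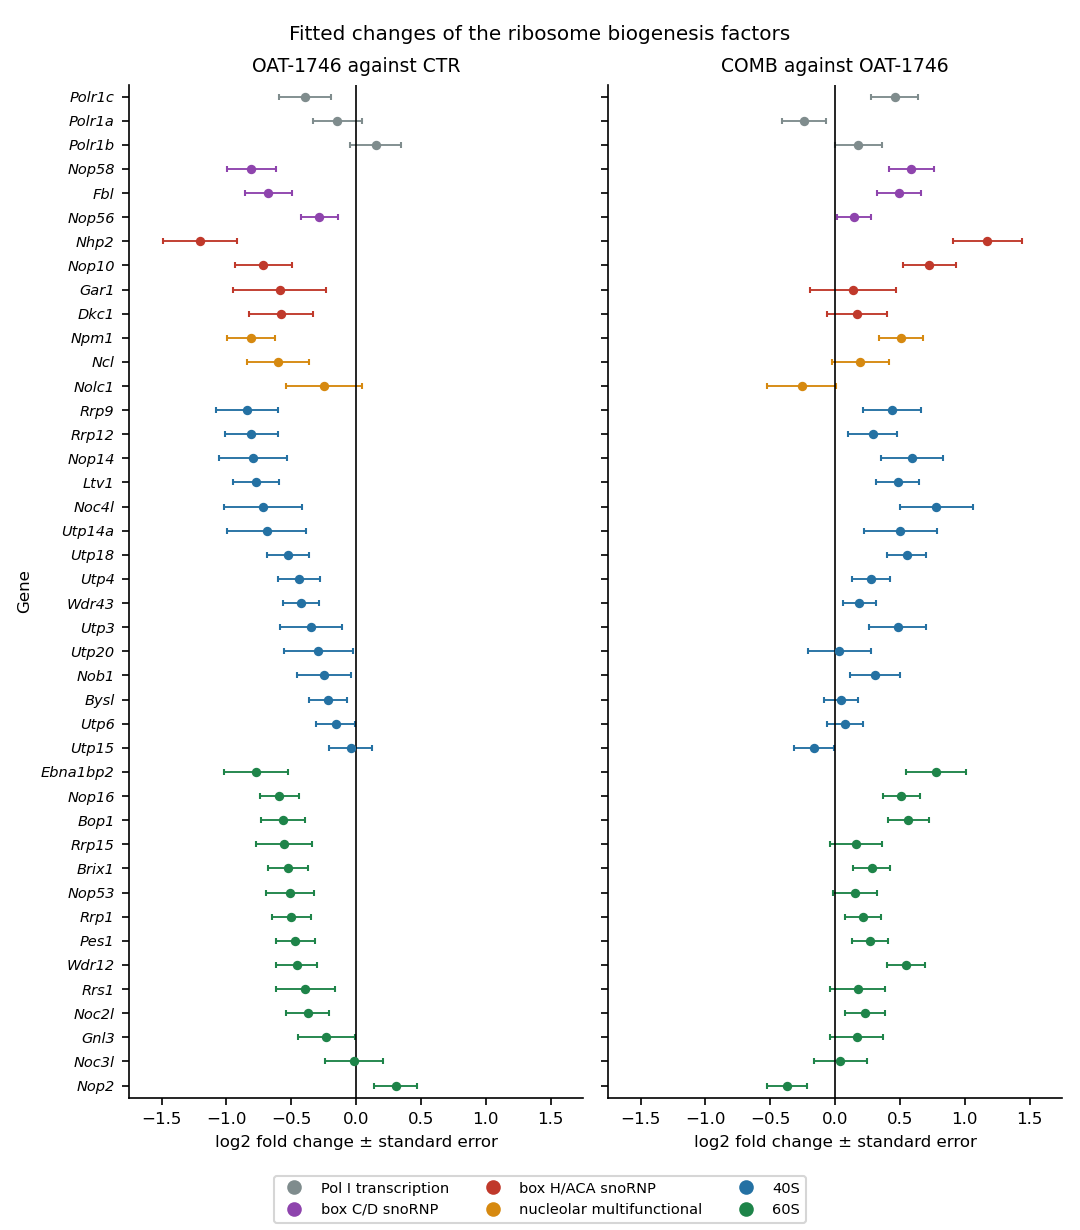
Log2 fold change (point) with its SE (bar) of each factor for OAT-1746 against CTR (left) and COMB against OAT-1746 (right), colored by step. On the left 40 of 42 points are below 0 and on the right 38 are above it, and both panels share the OAT-1746 libraries.

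Per kilobase of exon the most abundant factors were Npm1 at 124 CPM per kb, Nop53 at 42.5, Noc2l at 38.0 and Nhp2 at 35.01, as means over the 9 libraries. Wdr12 was lowest at 1.41 CPM per kb. Lengths are the union of all annotated exons of a gene, so genes with long rare exons are understated on this scale.

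Anti-PD-1 alone, which addresses the antibody without the inhibitor, left the factors near CTR. This comparison shares its CTR libraries with those of OAT-1746 and COMB. Their median log2 fold change was -0.06, beside 0.02 over all genes, with 27 lower and 15 higher, and it was 0.05 without CTR replicate 1. edgeR called 0 factors at an adjusted p under 0.05, beside 0% of tested genes. At an unadjusted p under 0.05 it had 1 factor lower, Npm1, beside 1.94%. DESeq2 called 0, beside 0.112%, and limma voom 0, beside 0%. Both anti-PD-1 libraries lay below both CTR libraries for 9 factors, beside 16.9% of tested genes. The largest differences were -0.49 ± 0.18 for Npm1 (edgeR adjusted p of 0.951) and 0.41 ± 0.20 for Polr1b (0.955), which was 0.16 without CTR replicate 2. By step the medians were -0.03 for RNA polymerase I, -0.06 for box C/D, -0.12 for box H/ACA, -0.27 for the nucleolar proteins, -0.10 for 40S and 0.04 for 60S. Leaving out 1 library turned the direction of each but that of the nucleolar proteins, which was -0.0020 without CTR replicate 1.

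COMB against CTR, the comparison for both agents together, gave a median of -0.18 over the factors, beside -0.0048 over all genes, with 31 lower and 11 higher. That median was -0.02 without CTR replicate 1. edgeR called 0 factors at an adjusted p under 0.05, beside 0% of tested genes. Its unadjusted p was under 0.05 for 2 factors, Rrp12 and Polr1a, both lower, beside 3.37%. DESeq2 called 0, beside 0.279%, and limma voom 0, beside 0.0160%. All 3 COMB libraries were below both CTR libraries for 16 factors, beside 15.8% of tested genes. Rrp12 had the largest difference, -0.52 ± 0.18 (edgeR adjusted p of 0.747), followed by Nolc1 at -0.50 ± 0.26 (0.767), which was -0.26 without CTR replicate 1. By step the medians were 0.06 for RNA polymerase I, -0.18 for box C/D, -0.22 for box H/ACA, -0.41 for the nucleolar proteins, -0.19 for 40S and -0.11 for 60S. Without CTR replicate 1 they were 0.11 for box H/ACA, -0.082 for box C/D, -0.14 for the nucleolar proteins, -0.011 for 40S and -0.014 for 60S, and without COMB replicate 2 that of RNA polymerase I was -0.021.

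COMB against anti-PD-1 sets mice with the inhibitor against mice without it where both received the antibody. The median was -0.10, beside -0.0093 over all genes, with 32 factors lower and 10 higher. Called factors were 0 in edgeR, beside 0%, 0 in DESeq2, beside 0.434% of the 10836 genes it tested, and 0 in limma voom, beside 0.279%. At an unadjusted p under 0.05 edgeR had 2 factors lower, Nolc1 and Rrp15, beside 5.26%. Nolc1 differed by -0.64 ± 0.26 (edgeR adjusted p of 0.662), or -0.41 without COMB replicate 2, and Rrp15 by -0.45 ± 0.20 (0.683).

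COMB against OAT-1746 sets mice with the antibody against mice without it where both received the inhibitor, and it shares the OAT-1746 libraries with the comparison against CTR. It was the comparison in which edgeR called factors: 7 were higher in COMB at an adjusted p under 0.05, beside 6.84% of tested genes, and 0 were lower, beside 8.94%. These were Nop58, Nhp2, Nop10, Utp18, Bop1, Wdr12 and Nop16. At an unadjusted p under 0.05 edgeR had 14 higher, beside 18.3%, and 1, Nop2, lower, beside 18.8%. DESeq2 called 12 higher, beside 13.7% of the 12051 genes it tested, and limma voom 8, beside 10.8%. All COMB libraries lay above both OAT-1746 libraries for 21 factors, beside 25.0%, and below them for 2, Polr1a and Nop2, beside 28.9%. Over the 42 factors the median was 0.27, beside 0.0029 over all genes, with 38 higher and 4 lower.

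The 7 calls depended on the model and on single libraries. With the replicate number as a block edgeR called 0 factors, beside 0% of tested genes higher. With a correction for length and GC content, chosen after seeing the data, it called 2, Nop58 and Wdr12, beside 4.52%. Without CTR replicate 2, OAT-1746 replicate 2, COMB replicate 2 or COMB replicate 3 in turn, edgeR called 0 factors. Without CTR replicate 1 it called 1, Nhp2, and without either anti-PD-1 library it called 2, Nop58 and Nhp2. Without OAT-1746 replicate 1 it called 12, of which 4 were among the 7, and without COMB replicate 1 it called 8, of which 5 were. The share of tested genes called higher was 18.1% and 10.4% in these 2 fits, and at most 2.38% in the others that left out a library. The median over the factors was 0.21 without OAT-1746 replicate 2 and 0.44 without replicate 1. Nhp2 had the largest difference, 1.17 ± 0.26 (edgeR adjusted p of 0.0297). The others were Nop10 at 0.73 ± 0.21 (0.0445), Nop58 at 0.59 ± 0.17 (0.0496), Bop1 at 0.56 ± 0.16 (0.0440), Utp18 at 0.55 ± 0.15 (0.0430), Wdr12 at 0.55 ± 0.15 (0.0403) and Nop16 at 0.51 ± 0.14 (0.0422). By the levels given with each step, every COMB library was above both OAT-1746 libraries in all 7 genes. They were called on these same libraries, so this adds no support, and it held for 25.0% of tested genes. Ebna1bp2 at 0.78 ± 0.23 had an edgeR adjusted p of 0.0506. By step the medians were 0.18 for RNA polymerase I, 0.50 for box C/D, 0.45 for box H/ACA, 0.19 for the nucleolar proteins, 0.31 for 40S and 0.22 for 60S. Without OAT-1746 replicate 2 they were 0.28 for box H/ACA, 0.0053 for the nucleolar proteins, 0.20 for 40S and 0.283 for RNA polymerase I. Without OAT-1746 replicate 1 they were 0.051 for RNA polymerase I, 0.43 for the nucleolar proteins, 0.54 for 40S and 0.40 for 60S.

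The interaction is the difference that OAT-1746 makes in mice given anti-PD-1 minus the difference it makes in mice without it. Its median over the factors was 0.43, beside -0.02 over all genes, with 36 above 0 and 6 below. edgeR called 0 factors at an adjusted p under 0.05, beside 0.359% of tested genes, and had 12 with an unadjusted p under 0.05 above 0, beside 11.8%, and 1, Nop2, below 0, beside 14.4%. DESeq2 called 2, Nhp2 and Npm1, beside 3.83% of the 11322 genes it tested, and limma voom called 2, beside 0.686%. The interaction of Nhp2 was 1.47 ± 0.38 (adjusted p of 0.0958 in edgeR and 0.0134 in DESeq2), and that of Npm1 was 1.00 ± 0.25 (0.0951 and 0.00664). Without OAT-1746 replicate 1 edgeR called 6 factors, beside 12.8% of tested genes above 0, and the median was 0.53; without OAT-1746 replicate 2 the median was 0.31.

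Further factors of the pathway were taken from a fixed list of 98 genes, of which 97 were found and 96 tested. Wdr74 was at 0 in every library. Their median log2 fold change was -0.28 for OAT-1746, -0.04 for anti-PD-1, -0.09 for COMB and 0.16 for COMB against OAT-1746. Without CTR replicate 1 the first 3 were -0.18, 0.032 and 0.0062. Neither edgeR nor limma voom called any of the 96 in OAT-1746 against CTR. At an unadjusted p under 0.05 edgeR had 34 lower and 1 higher, beside 16.2% and 16.1% of tested genes, and DESeq2 called 12 lower and 0 higher, beside 8.15% and 9.11%. In COMB against OAT-1746 edgeR called 8 of the 96 higher (8.33%) and 0 lower, close to the 6.84% of tested genes called higher. By step the OAT-1746 median was 0.07 for 12 genes of RNA polymerase I transcription, -0.16 for 35 of the 40S subunit, -0.33 for 38 of the 60S subunit and -0.42 for 11 of the RNA exosome, which trims rRNA precursors. Without CTR replicate 2 that of RNA polymerase I transcription was -0.060 and that of the 40S subunit -0.30. The largest OAT-1746 differences were those of Pno1 and Mrto4. Pno1, a 40S factor, was at 56.3 and 52.5 CPM in CTR, 34.2 and 19.3 in OAT-1746, 38.9 and 48.7 in anti-PD-1, and 37.3, 54.5 and 51.0 in COMB. Mrto4, a 60S factor, was at 34.1 and 36.8 CPM in CTR, 18.5 and 18.8 in OAT-1746, 35.7 and 34.4 in anti-PD-1, and 32.9, 37.9 and 37.0 in COMB. Mrto4 had closely matched OAT-1746 libraries below all others, at a log2 fold change of -0.93 ± 0.15 (adjusted p of 0.0599 in edgeR), and that of Pno1 was -1.02 ± 0.28 (-0.66 without OAT-1746 replicate 2).

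The MYC network, whose first member MYC activates ribosome biogenesis genes, was given as 10 genes, 9 of them tested. Their OAT-1746 median was 0.51, with 7 higher and 2 lower. RNA levels of this list do not measure the activity of MYC, which was not tested. edgeR called 0 of 9 in OAT-1746 against CTR, with 5 higher and 0 lower at an unadjusted p under 0.05, beside 16.1% of tested genes higher. DESeq2 called 2 of the 8 it tested higher, beside 9.11%, and limma voom 0. Mycl was at 13.5 and 20.1 CPM in CTR, 33.7 and 51.0 in OAT-1746, 20.1 and 11.6 in anti-PD-1, and 23.6, 23.5 and 22.2 in COMB. Its OAT-1746 libraries were the highest of the 9, at a log2 fold change of 1.33 ± 0.30 (edgeR adjusted p of 0.0619). Mxd3 differed by -1.28 ± 0.68 at under 1 CPM in every library, and by -0.59 without OAT-1746 replicate 2. Myc itself, named after its values were seen, was at 41.6 and 44.1 CPM in CTR, 58.3 and 78.5 in OAT-1746, 54.4 and 39.4 in anti-PD-1, and 30.6, 29.0 and 30.1 in COMB. Myc was highest in OAT-1746 and lowest in COMB, where every library was below all others. Myc was lower in COMB than in OAT-1746 by a log2 fold change of -1.19 ± 0.18 (edgeR adjusted p of 0.0160). In that comparison 8.94% of tested genes were called lower. This share was 0.104% without COMB replicate 2, 0.0400% without COMB replicate 3 and 0.0160% with the replicate number as a block.

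Genes of the cell cycle had larger negative medians in OAT-1746 than the factors. The median was -1.04 over 20 S phase genes and -1.58 over 20 G2/M genes, and -0.72 and -0.90 without OAT-1746 replicate 2. In anti-PD-1 against CTR, where the factors were at -0.06, these medians were -0.40 (19 of 20 lower) and -0.79 (20 of 20 lower). They were -0.24 and -0.51 in COMB against CTR. For S phase the anti-PD-1 median was -0.65 without anti-PD-1 replicate 2 and -0.24 without replicate 1, and the COMB median was -0.12 without CTR replicate 1. In OAT-1746 against CTR called genes were 0 of each in edgeR and limma voom, with 15 of 20 lower in each list at an unadjusted edgeR p under 0.05, beside 16.2% of tested genes, and DESeq2 called 14 and 12 lower, beside 8.15%. In COMB against OAT-1746, where the factors were at 0.27, the medians were 0.83 for S phase and 0.96 for G2/M. In each list 20 of 20 genes were higher. Without OAT-1746 replicate 2 these medians were 0.43 and 0.29, and without replicate 1 they were 1.40 and 2.27. With all libraries edgeR called 5 of 20 S phase genes (25%) and 2 of 20 G2/M genes (10%) higher in that comparison. The share of tested genes called higher was 6.84%, which the G2/M share is near. The S phase genes with the largest OAT-1746 differences were Rrm2 at -2.10 ± 0.51 and Cdc6 at -1.92 ± 0.47, both needed for DNA replication. Those of G2/M were Birc5 at -2.35 ± 0.55 and Mki67 at -2.02 ± 0.98. Without OAT-1746 replicate 2 these 4 values were -1.38, -1.33, -1.58 and -1.28. Library medians relative to CTR were -0.73 and -1.56 for S phase in OAT-1746, -0.63 and -0.23 in anti-PD-1, and -0.34, -0.24 and -0.16 in COMB. For G2/M they were -0.86 and -2.87 in OAT-1746, -0.996 and -0.60 in anti-PD-1, and -0.73, -0.52 and -0.56 in COMB. All 7 treated libraries were thus below both CTR libraries in the medians of both lists, and anti-PD-1 replicate 1 was lower than OAT-1746 replicate 1 for G2/M. OAT-1746 replicate 2 was far lower than replicate 1 in both lists, where the factors stood at -0.57 and -0.35. What part dividing cells have in the lower factor levels was not tested.

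**Figure D4:**
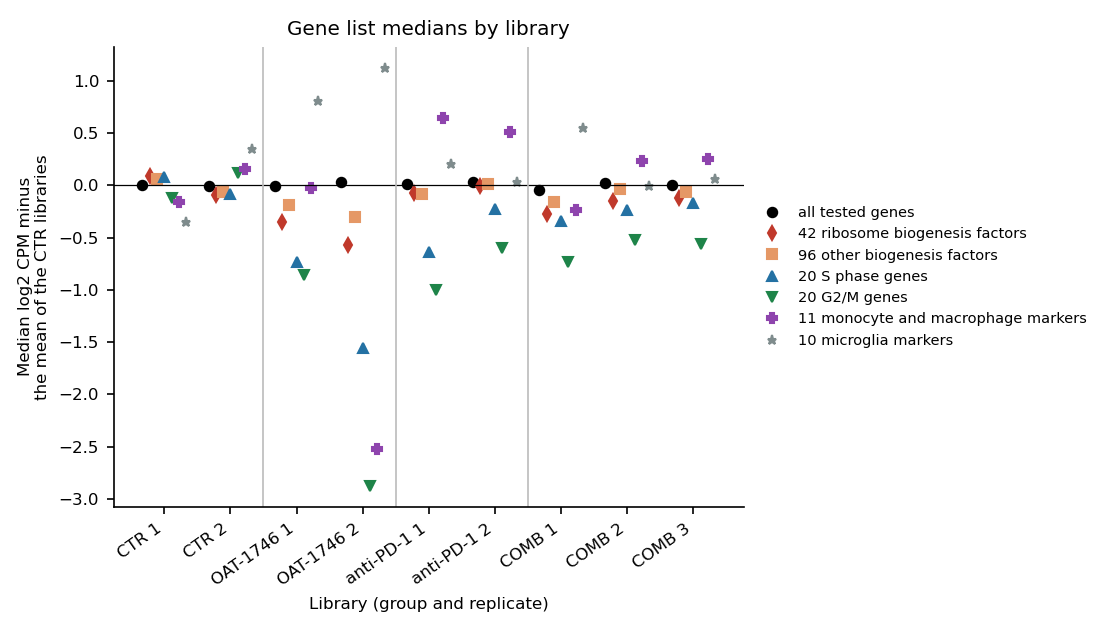
Median log2 CPM of each gene list in each library minus the mean of the CTR libraries; each symbol is a list and points are offset sideways within a library. The 42 factors are at -0.35 and -0.57 in the OAT-1746 libraries, while the monocyte and macrophage markers differ between these libraries, at -0.02 and -2.53.

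Markers of the cells in the gate also differed between libraries. All 10 microglia markers were above the CTR mean in both OAT-1746 libraries, with library medians of 0.81 and 1.13. Their summed level was 13979.7 and 22156 CPM in CTR, 29372 and 36771 in OAT-1746, 20804 and 17075 in anti-PD-1, and 25249, 18925 and 17978 in COMB. The 11 monocyte and macrophage markers, led by Tgfbi, summed to 13559 and 12802 CPM in CTR, 9726 and 1897 in OAT-1746, 13305 and 15215 in anti-PD-1, and 10227, 12873 and 13242 in COMB. OAT-1746 replicate 2 was low in all 11 of these and had S100a4 at 0, whereas OAT-1746 replicate 1 had a median of -0.02 relative to CTR. The summed level of replicate 1 was below that of every other library but OAT-1746 replicate 2, so the list was lower in both OAT-1746 libraries by its sum. The part of the cell mixture in the factor levels was not tested.

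Lists of other cell types were summed in the same way. The 8 markers of border-associated macrophages, led by Apoe, summed to 3712 and 3202 CPM in CTR, 1739 and 1885 in OAT-1746, 2511 and 2295 in anti-PD-1, and 1956, 1908 and 2188 in COMB. The sum was below CTR in every treated library, while the median log2 fold change of the 8 was -0.04 in OAT-1746, with 4 lower and 4 higher (-2.05 to 0.93). The 7 neutrophil markers, led by Csf3r, summed to 303 and 443 CPM in CTR, 489 and 633 in OAT-1746, 343.8 and 344.04 in anti-PD-1, and 399, 396 and 384 in COMB. The 7 dendritic cell markers, led by Itgax, summed to 1504 and 769 CPM in CTR, 502 and 159 in OAT-1746, 482 and 1099 in anti-PD-1, and 689, 828 and 882 in COMB. The 8 NK cell markers, led by Gzma, were highest in anti-PD-1, at 262 and 140 CPM, beside 45.6 and 39.0 in CTR, 71.7 and 18.4 in OAT-1746, and 55.7, 128 and 139 in COMB. Of the T cell list 6 of 7 genes were found, summing to at most 22.7 CPM, with Cd3e, Cd3d and Cd3g at 0 in 1 or more libraries and Cd4 the most abundant. Of the B cell list 5 of 6 were found, summing to at most 25.8 CPM, with Cd79a, Ms4a1 and Pax5 at 0 in 1 or more libraries and Cd79b the most abundant. The 8 markers of astrocytes and oligodendrocytes, led by Cnp, summed to between 370 and 552 CPM, and the 7 of endothelial and erythroid cells, led by Pecam1, to between 47.8 and 119. The 10 immediate early genes, led by Junb, which respond to handling of cells, summed to 10202 and 9617 CPM in CTR, 14700 and 21624 in OAT-1746, 9297 and 12109 in anti-PD-1, and 5263, 5801 and 5879 in COMB. Their part in the results was not tested.

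Gene length also moved with the comparison. The median exon length of the factors was 3519.5 bases. Over all tested genes up to that length (4427 genes) the OAT-1746 median was -0.22, and over longer genes (8111) it was 0.11. The 21 shorter factors had a median of -0.56 and the 21 longer ones -0.43, so both sets of factors were below the genes of their own length range. In COMB against OAT-1746 the medians were 0.44 for the shorter and 0.17 for the longer factors, beside 0.27 and -0.13 over the genes of those lengths. With a correction for length and GC content, chosen after seeing the data, the median of all 42 factors was -0.40 for OAT-1746 and 0.14 for COMB against OAT-1746, where edgeR then called 2 factors, Nop58 and Wdr12, beside 4.52% of tested genes higher.

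Promoters were compared because many factors were lower together and because MYC binds the E-box CACGTG, which reads the same on both strands. Windows of 300 bases around the gene start came from RefSeq on GRCm38.p6, and 35 of the 42 factors were matched, with 38 windows. No entry was matched for Nop53, Npm1, Rrs1, Bop1, Rrp12, Utp6 and Fbl. The letters CACGTG were found in 7 of the 38 windows (18.4%), those of Nop2, Utp4, Ltv1, Utp20, Pes1, Utp18 and Wdr43, which is 20% of the matched factors. Of all 32851 windows of this length 7.15% held it, and of the 9950 symbols of tested genes 11.5% did. The 7 factors with the letters had a median OAT-1746 log2 fold change of -0.44 (-0.77 to 0.30), and the 28 without had -0.51 (-1.20 to 0.15). The ranges overlap, and a match is only a description of the letters. The windows of the 3 most abundant of the 7 in CPM are printed with the motif in capitals: Pes1 and Wdr43, lower in OAT-1746, and Nop2, higher. They lie on the plus strand at chr11:3963725-3964024 (Pes1), chr6:125131633-125131932 (Nop2) and chr17:71615965-71616264 (Wdr43), with the motif starting at base 253, 191 and 268 of the window. By the gene coordinates used elsewhere here (GENCODE M21), Wdr43 starts at chr17:71615895, upstream of its whole window.
Pes1: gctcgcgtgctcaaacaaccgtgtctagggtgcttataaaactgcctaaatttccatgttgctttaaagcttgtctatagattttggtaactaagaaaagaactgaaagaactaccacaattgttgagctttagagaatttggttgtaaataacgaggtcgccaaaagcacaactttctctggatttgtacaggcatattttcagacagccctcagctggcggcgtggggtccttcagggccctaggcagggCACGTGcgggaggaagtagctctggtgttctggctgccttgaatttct
Nop2: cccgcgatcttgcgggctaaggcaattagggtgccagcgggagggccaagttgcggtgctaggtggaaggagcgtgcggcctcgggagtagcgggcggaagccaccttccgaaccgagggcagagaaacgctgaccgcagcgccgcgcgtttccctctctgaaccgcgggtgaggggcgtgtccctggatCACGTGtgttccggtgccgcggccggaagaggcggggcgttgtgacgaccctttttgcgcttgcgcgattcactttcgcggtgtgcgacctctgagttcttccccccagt
Wdr43: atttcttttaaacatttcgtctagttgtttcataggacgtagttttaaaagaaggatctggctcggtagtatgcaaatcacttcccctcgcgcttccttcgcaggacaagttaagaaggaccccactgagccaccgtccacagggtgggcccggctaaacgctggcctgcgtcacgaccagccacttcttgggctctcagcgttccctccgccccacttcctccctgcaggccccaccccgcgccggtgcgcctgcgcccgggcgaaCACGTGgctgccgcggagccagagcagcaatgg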

How the data were processed

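Each deposited value is a raw count, the number of read pairs assigned to a gene in a library. By their methods, the authors used Trimmomatic 0.36 for trimming, STAR 2.6.1b for alignment to mm10, Picard 2.17.1 to mark duplicates and HTSeq 0.11.1 for stranded counting (reverse mode, mapping quality of at least 10).

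Gene types, coordinates and lengths came from GENCODE M21 (GRCm38), where 53620 of the 53801 gene IDs had an entry. Protein-coding genes that passed filterByExpr (minimum count 10) were scaled by TMM and fitted with edgeR 4.0.16 in R 4.3.3, using a mean for each of the 4 groups over all 9 libraries. Calls used a Benjamini-Hochberg adjusted p under 0.05 over all 12538 genes. DESeq2 1.42.0 and limma 3.58.1 (voom with sample quality weights) were alternatives, beside other scalings, filters, a replicate block, robust estimation and leaving out each library. The steps were tested on simulated data.

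The 42 factors and the gene lists were chosen with earlier results of these data known. Values in every library are given for the most abundant factor of each step, for the 1 to 3 per step that differed most in OAT-1746 against CTR, for the 2 that differed most in each of anti-PD-1 and COMB against CTR, for those called in COMB against OAT-1746, and outside these rules for Ncl and Nop2. The levels of 2 marker genes are not reported here on their own.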

Additional observations from a re-analysis of the deposited data

How the results depend on the processing

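Directions of the factor medians held in all 6 comparisons under every alternative, except anti-PD-1 against CTR without CTR replicate 1. In OAT-1746 against CTR the count of called factors, 0 in edgeR (25 at an unadjusted p under 0.05, all lower), was 16 with DESeq2, 4 with no low-count filter, 18 at an adjusted p under 0.1, and 0 to 18 when leaving out each library. All were lower, beside 8.15%, 1.22%, 9.06% and 0% to 17.0% of the genes tested under the same settings. In COMB against OAT-1746 the 7 called factors became 12 with DESeq2, 2 with the length and GC correction, 12 at an adjusted p under 0.1 and 0 to 12 when leaving out each library. All were higher, beside 6.84% in the main fit and 13.7%, 4.52%, 14.9% and 0% to 18.1% under these settings. The interaction count of 0 in edgeR (12 above 0 at an unadjusted p under 0.05) became 2 with DESeq2, 2 with limma voom, 2 at an adjusted p under 0.1 and 0 to 6 when leaving out each library, all above 0, beside 3.83%, 0.686%, 1.03% and 0% to 12.8% of tested genes above 0. The length and GC correction, chosen after seeing the data, moved the factor median to 0.14 for COMB against OAT-1746 and 0.26 for the interaction. Leaving out each library gave medians of -0.58 to -0.36 for OAT-1746, -0.13 to 0.052 for anti-PD-1, -0.28 to -0.017 for COMB, 0.21 to 0.44 for COMB against OAT-1746 and 0.31 to 0.53 for the interaction. The cause was not tested.

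Some single factors changed sign when a library was left out: 6 of 42 in OAT-1746 against CTR, 26 in anti-PD-1 against CTR, 16 in COMB against CTR, 21 in COMB against anti-PD-1, 9 in COMB against OAT-1746 and 12 in the interaction. In OAT-1746 against CTR the ranges were -0.29 to 0.018 for Polr1a, -0.30 to 0.0057 for Utp6, -0.10 to 0.45 for Polr1b, -1.08 to 0.15 for Gar1, -0.16 to 0.074 for Utp15 and -0.28 to 0.30 for Noc3l. In COMB against CTR they were, among the 16 factors named by rule, -0.021 to 0.11 for Polr1c, -0.35 to 0.031 for Fbl, -0.18 to 0.16 for Nhp2, -0.22 to 0.094 for Utp6, -0.37 to 0.0031 for Nop14, -0.11 to 0.16 for Ebna1bp2 and -0.091 to 0.12 for Bop1. In that comparison the length and GC correction gave -0.047 for Polr1c, -0.056 for Ebna1bp2 and -0.082 for Bop1. Fitting all genes gave -0.0049 for Ebna1bp2 and -0.0046 for Bop1. Nhp2 was 0.0047 with at least 10 counts in every library and 0.092 with limma voom. Of 304 values of the 16 factors named by rule 3 changed sign in OAT-1746 against CTR, as did 21 of 304 in COMB against CTR. Of 133 values of the 7 called factors in COMB against OAT-1746, 64 no longer passed and 0 changed sign.

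With the replicate number as a replicate block, 0 factors were called in COMB against OAT-1746, as in the other 5 comparisons, and Ebna1bp2 and Bop1 in COMB against CTR were at -0.13 and -0.029. The labels do not say whether the numbers share a source. Deviations of libraries with the same number from their group means correlated across genes at -0.35 to 0.10. In a group of 2 libraries the deviations mirror each other, so these correlations cannot decide it.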
